A study of Saccharomyces cerevisiae BY4741 with 238 samples.

Results

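This section describes 26 cultures of budding yeast that held LiCl and myriocin together, out of 238 cultures in the series. They were every well of the LiCl with myriocin grid that was sequenced with both doses above 0. The question was which transcripts move as the mixture shifts from mostly myriocin to mostly LiCl while growth stays nearly the same. Each well was a culture of strain BY4741, a MATa haploid laboratory strain that lacks working copies of URA3, LEU2, HIS3 and MET17, grown in rich glucose medium. All wells of a grid were seeded from an overnight culture and diluted anew during 3 rounds of growth, and wells growing at about an intermediate rate at the end were lysed. The wells are therefore separate cultures only from the seeding onwards, and p-values measure the spread between wells of 1 grid.

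The mixture wells were numbered 1 to 26 by rising ratio of the LiCl dose to the myriocin dose, both in µg/ml. The ratio took 19 distinct values, the lowest 5222 and the highest 109597, a range of 4.39 doublings. Wells 1 to 7 shared the lowest ratio, with LiCl rising over 2346 to 5022 µg/ml and myriocin over 0.449 to 0.962 µg/ml. Wells 8 to 16, the middle wells, held 5701 to 13853 µg/ml LiCl with 0.579 to 0.962 µg/ml myriocin. Wells 17 to 26 held the highest LiCl doses, 15726 to 17853 µg/ml, with 0.163 to 0.510 µg/ml myriocin. For comparison the same grid, by its label, gave 2 wells with LiCl alone at 15726 µg/ml, 2 wells with myriocin alone at 0.449 µg/ml and 2 wells with no drug. Of the 18 other myriocin-alone wells of the grid, 13 grew at 0.410 to 0.994 of the drug-free rate, at 0.163 to 0.510 µg/ml. Their range is given where mixtures are set below or above myriocin alone. The drug-free growth reference (absolute over relative growth) took 1 value in the mixture wells. The 2 LiCl-alone wells had different references, as had the 2 myriocin-alone wells at 0.449 µg/ml. Both no-drug wells had another reference than the mixtures, and the 18 other myriocin-alone wells were divided. The reason was not tested.

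Growth relative to drug-free cultures averaged 0.486 ± 0.0403 (SD, n = 7) in the lowest-ratio wells, 0.470 ± 0.0370 (n = 9) in the middle wells and 0.461 ± 0.0247 (n = 10) in the highest-LiCl wells. Mixture wells 7 to 12, which held 0.962 µg/ml myriocin, grew at 0.442 to 0.522, whereas the well with that myriocin dose alone grew at 0.0358. LiCl-alone wells grew at 0.501 and 0.538, and myriocin-alone wells at 0.496 and 0.520. Cell density at the end was not constant. Optical density at 600 nm (OD600) was 0.473 to 0.578 in the lowest-ratio wells, 0.488 to 0.623 in the middle wells and 0.532 to 0.740 in the highest-LiCl wells. Library number rose with the ratio too: none of the 25 steps in library number lowered the ratio, so the order of library making and the ratio cannot be told apart.

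**Figure D1:**
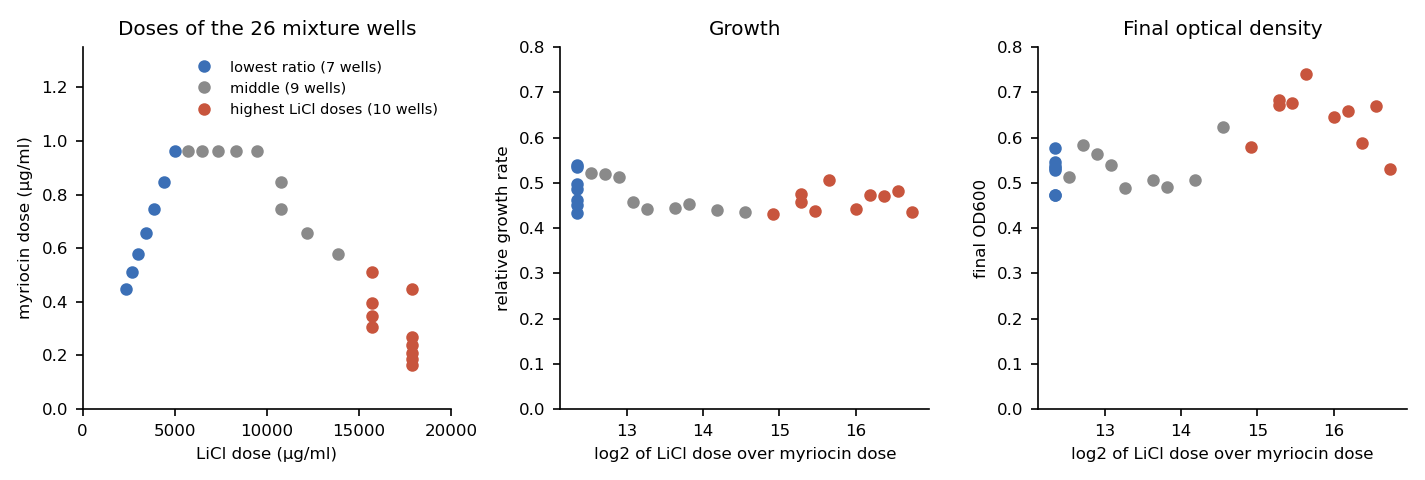
Doses and growth of the 26 mixture wells. LiCl dose against myriocin dose (both µg/ml) and relative growth and final OD600 against the log2 dose ratio; each point is 1 well. Growth lies between 0.430 and 0.539 at every ratio, while final OD600 reaches 0.740 only among the highest-LiCl wells.

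Levels are given in normalised reads, the authors' values after every library was given the same distribution, so a level is relative to the other genes of its library. Estimated depth was 251487 to 638080 reads in the mixture wells and was higher at high ratios, averaging 389692 ± 31909 (SD, n = 7) in the lowest-ratio wells, 444756 ± 87441 (n = 9) in the middle wells and 527749 ± 75976 (n = 10) in the highest-LiCl wells, against 64843 to 2017612 over all 238 libraries, and pairs of mixture wells correlated at 0.912 to 0.972 over log2 levels. Reads lie near the 3' end of transcripts, so levels are not divided by gene length and were not compared between genes. LEU2, URA3 and MET17 were at the library minimum in 26 of 26 wells, whereas HIS3 ranged over 0.00837 to 17.1 normalised reads. The 8 mitochondrial transcripts examined were at the minimum in every mixture well. Of 6 alpha-cell markers, the alpha-factor gene MF(ALPHA)1 was at the minimum in 23 of 26 wells, STE3 in 7 and SAG1 in 2. The other 3 were at the minimum in 0 wells. MF(ALPHA)2 had 4.35 to 21.7 normalised reads and HMLALPHA1 6.79 to 42.1. HMLALPHA2, which shares sequence with other mating-type copies, had 86.8 to 187.8. As cultures are bulk, a change in every cell and a change in a fraction of cells cannot be told apart.

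Lithium enters yeast through cation uptake routes, is pumped out by the Ena ATPases and inhibits phosphatases such as Met22, which clears a by-product of sulfate assimilation. A high salt load also raises external osmolarity, which signals through the Hog1 kinase to genes of glycerol production and uptake. Myriocin blocks serine palmitoyltransferase (Lcb1, Lcb2 and Tsc3), the entry step of sphingolipid synthesis, and the Orm proteins and the Ypk1 kinase adjust that step to demand. Stress genes under the Msn2 and Msn4 activators often carry the element AGGGG, genes of sulfur amino acid or phosphate metabolism carry CACGTG (bound by Cbf1 or Pho4), and ribosome assembly genes often carry GATGAG, the core of the PAC element.

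Promoter sequences of 7 genes on which the results turn show these elements. They are stretches of 120 bases from the RefSeq sequence of build R64, written 5' to 3' on the gene's strand, with matches in capitals on either strand. AGGGG, or its reverse complement CCCCT, stands in STL1 and SIP18, which rose along the ratio. CACGTG stands in PHO84 and MET6, which fell. GATGAG, or its reverse complement CTCATC, stands in NSR1, UTP11 and ARX1, which were highest in mid-range.
STL1 (chrIV:1507772-1507891, plus strand): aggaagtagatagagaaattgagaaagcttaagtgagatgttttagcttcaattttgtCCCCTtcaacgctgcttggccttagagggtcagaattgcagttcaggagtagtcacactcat
SIP18 (chrXIII:610580-610699, plus strand): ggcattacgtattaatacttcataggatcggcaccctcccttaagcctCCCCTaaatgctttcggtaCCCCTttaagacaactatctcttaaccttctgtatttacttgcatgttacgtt
PHO84 (chrXIII:26163-26282, minus strand): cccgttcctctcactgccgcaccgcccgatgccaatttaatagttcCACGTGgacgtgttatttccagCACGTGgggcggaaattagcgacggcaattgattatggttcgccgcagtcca
MET6 (chrV:342598-342717, minus strand): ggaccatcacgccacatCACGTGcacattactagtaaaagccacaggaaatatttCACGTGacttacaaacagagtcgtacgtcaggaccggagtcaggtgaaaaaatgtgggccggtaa
NSR1 (chrVII:807781-807900, minus strand): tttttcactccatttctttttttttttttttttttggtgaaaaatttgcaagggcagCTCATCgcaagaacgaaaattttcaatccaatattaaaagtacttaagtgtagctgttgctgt
UTP11 (chrXI:256542-256661, minus strand): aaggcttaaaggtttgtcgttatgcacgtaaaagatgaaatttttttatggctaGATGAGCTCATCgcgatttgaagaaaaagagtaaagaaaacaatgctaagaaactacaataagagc
ARX1 (chrIV:657518-657637, minus strand): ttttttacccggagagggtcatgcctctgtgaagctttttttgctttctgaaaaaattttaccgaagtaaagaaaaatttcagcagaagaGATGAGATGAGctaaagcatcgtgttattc
A match is a description of letters, not a site that a factor was shown to bind. The shares of all promoters that hold each element are given at the end.

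Along the ratio, 248 of 5015 features tested rose (4.95%) and 202 fell (4.03%). A feature was called when the slope of log2(normalised reads + 1) on the log2 ratio, with growth as a term, had a Benjamini-Hochberg adjusted p below 0.05 over all features in limma and the fitted change over the whole range was at least 1.5-fold. All changes are given in log2 units over the 4.39 doublings of the ratio, with the standard error. The median change over all features was -0.01. A curve was called for 67 features with a level above the straight course in mid-range (1.34%) and 24 with a level below it (0.479%). The same thresholds were used, on the departure of the fitted mid-range value from the mean of the fitted ends. In all, 41 features rose and lay above the straight course, so that most of the rise came at lower ratios, and 12 fell and lay below it. Of the others, 207 rose and 190 fell with no curve called. For a curve alone, 26 were called above the straight course and 12 below it. No feature combined a rise with a trough or a fall with a hump.

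Final OD600 and the ratio moved together. With OD600 as a further term, 100 of the 248 rises and 80 of the 202 falls were still called. With log2 estimated depth as a further term 479 features were called, 323 of them among the 450. Log2 total dose here means the mean of the log2 LiCl and log2 myriocin doses, not the log2 of their sum. With it as a further term, 2 of the 91 curved features were still called, STL1 and GRE1. Total dose in this sense peaks in wells 12 and 13, among the middle wells, so curve and total dose cannot be told apart for most features.

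**Figure D2:**
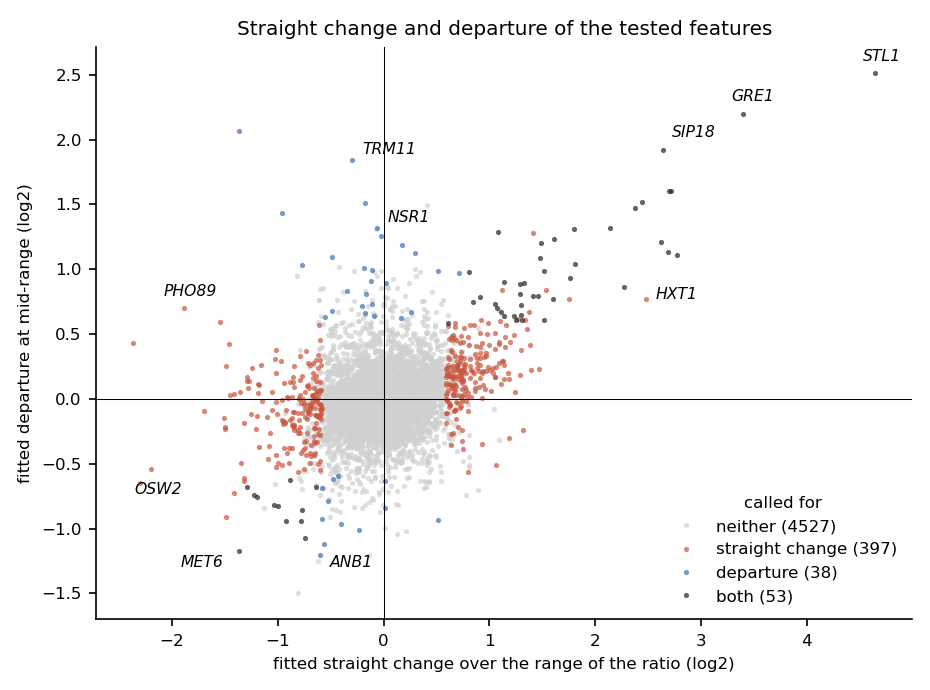
Change along the ratio (x, log2 units over the range) against departure at mid-range (y, log2 units) for 5015 features, coloured by call. The 53 features called on both lie in the upper right (41) and lower left (12).

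STL1, the glycerol and proton symporter that takes up external glycerol (YDR536W, chrIV:1508005-1509714, R64), showed the largest rise of any called gene with a standard name. Its level had a lowest, median and highest value of 0.00837, 9.21 and 15.3 normalised reads in the lowest-ratio wells, 5.01, 59.6 and 112 in the middle wells and 46.3, 160 and 324 in the highest-LiCl wells. The highest-LiCl wells did not overlap the lowest-ratio wells, while the middle wells spanned the gap. The fitted rise was 4.64 ± 0.65 (adjusted p = 1.45e-06, limma) and the departure 2.51 ± 0.51 (adjusted p = 0.00199). LiCl alone gave 18.9 and 17.04 normalised reads, myriocin alone 13.7 and 9.74, and no drug 12.7 and 15.7. Wells 17, 19, 20 and 21 held the same LiCl dose as the LiCl-alone wells together with myriocin, and had 89.6, 287, 47.5 and 198.4. Their mean was 8.65-fold that of LiCl alone. Growth in these wells was 0.430, 0.474, 0.437 and 0.506, against 0.501 and 0.538 with LiCl alone. The comparisons at this shared LiCl dose below carry the same growth difference.

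GRE1, a hydrophilin gene induced by osmotic stress (YPL223C, chrXVI:128632-129138), had 13.1, 18.1 and 29.5 normalised reads (lowest, median, highest) in the lowest-ratio wells, 25.1, 87.6 and 207 in the middle wells and 85.4, 220 and 321 in the highest-LiCl wells. Both LiCl-alone wells were lower than any mixture well, at 9.09 and 7.95, and myriocin alone gave 18.3 and 8.40. At the shared LiCl dose wells 17, 19, 20 and 21 had 159, 321, 227 and 262, a mean 28.4-fold that of LiCl alone. The fitted rise was 3.40 ± 0.41 (adjusted p = 1.29e-07, limma) and the departure 2.20 ± 0.21 (adjusted p = 3.94e-09).

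SIP18, another hydrophilin gene tied to desiccation tolerance, and TKL2, a minor transketolase of the pentose phosphate pathway, followed the same curved course. SIP18 had 65.6 to 195.6 normalised reads (median 114) in the lowest-ratio wells, 244 to 854 (675) in the middle wells and 518 to 1018 (876) in the highest-LiCl wells, against 280 and 284 with LiCl alone. TKL2 had 59.1 to 173 (median 102), 163 to 591 (415) and 511 to 840 (730) in those 3 sets, against 300 and 295 with LiCl alone. The middle wells lay above every lowest-ratio well for SIP18 but overlapped them for TKL2. Over the range SIP18 rose by 2.64 ± 0.41 (adjusted p = 7.96e-06) and TKL2 by 2.72 ± 0.34 (adjusted p = 2.2e-07). At the shared LiCl dose the mixtures stood 3.06-fold and 2.32-fold above LiCl alone for SIP18 and TKL2.

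As a group, genes of osmotic stress and glycerol synthesis rose or were not called: 12 of 27 tested rose and 0 fell, with a median change of 0.46 against -0.01 over all features, and 9 of the 27 lay above the straight course. Over all features 4.95% rose and 1.34% lay above the straight course. The 12 included CTT1, the cytosolic catalase, whose rise was 1.23 ± 0.14 (adjusted p = 6.11e-08). CTT1 had 382 to 586 normalised reads (median 424) in the lowest-ratio wells and 1032 to 1189 (1105) in the highest-LiCl wells, but LiCl alone already gave 1032 and 1040. Averaged over the 27 genes, log2 levels relative to the mean of the lowest-ratio wells were 0.68 to 0.96 in the highest-LiCl wells, against 0.36 and 0.30 with LiCl alone and -0.18 and -0.32 with myriocin alone. Every highest-LiCl well lay above each of these 4 single-drug wells on this average, and above the 13 other myriocin-alone wells (-0.36 to -0.12). With OD600 as a term 10 of the 27 rose, and with total dose as a term 2 of the 27 were called curved.

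**Figure D3:**
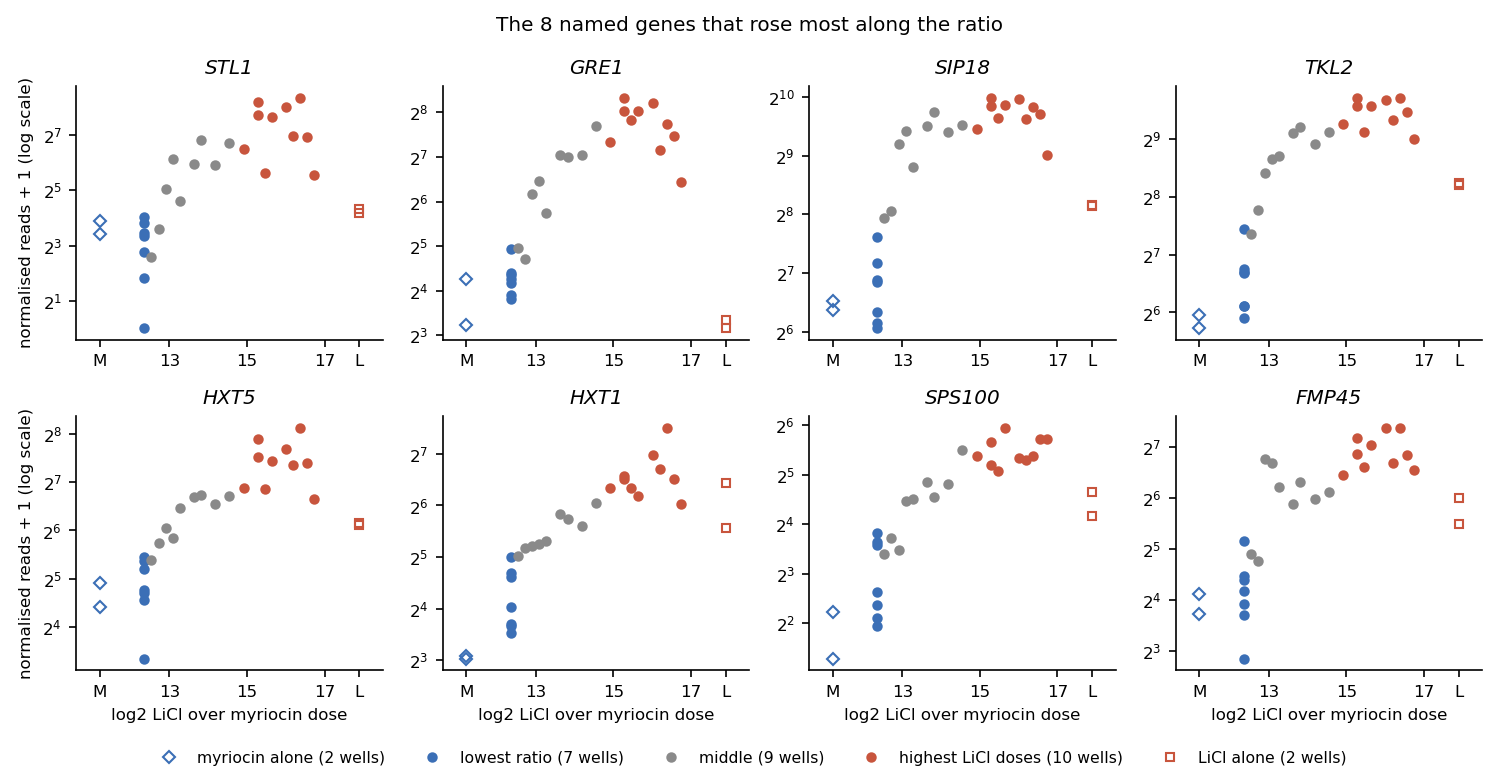
The 8 genes with the largest rises called: STL1, GRE1, SIP18, TKL2, HXT5, HXT1, SPS100 and FMP45. Each point is 1 mixture well (log scale, normalised reads + 1, against log2 ratio), M and L mark myriocin-alone and LiCl-alone wells placed at the axis ends. All highest-LiCl wells lie above both LiCl-alone wells in every panel except HXT1, where 6 of 10 do.

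The broader stress programme also rose along the ratio, but its list averages did not stand clear of LiCl alone. Relative to the lowest-ratio wells, the general stress average was 0.52 to 0.75 in the highest-LiCl wells, against 0.56 and 0.52 with LiCl alone. The heat shock and chaperone average was 0.16 to 0.41, against 0.31 and 0.27. Of 41 general stress genes tested 19 rose and 0 fell (median 0.54), with 6 above the straight course. GND2, a 6-phosphogluconate dehydrogenase isoform, rose by 1.48 ± 0.23 (adjusted p = 1.24e-05), and had 72.99 to 187.5 normalised reads (median 87.9) in the lowest-ratio wells and 270 to 361 (308) in the highest-LiCl wells. All 10 highest-LiCl wells exceeded the 118 and 108 of LiCl alone. Among 32 heat shock and chaperone genes 6 rose and 0 fell (median 0.26), among them the cytosolic Hsp70 genes SSA3 (1.23 ± 0.18, adjusted p = 2.66e-06) and SSA4 (1.13 ± 0.18, adjusted p = 1.31e-05) and the small heat shock gene HSP42 (0.98 ± 0.09, adjusted p = 6.88e-10). SSA3 and SSA4 stood above both LiCl-alone wells in 10 of 10 highest-LiCl wells, while HSP42 did so in 1 of 10. RPN4, the activator of proteasome genes, rose by 0.76 ± 0.15 (adjusted p = 0.000281). Of the 33 genes of the proteasome list, which holds RPN4, 2 rose, near the 4.95% of all features. They were RPN4 itself and the subunit gene RPT6.

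Carbohydrate genes shifted in both directions. HXT1, a low-affinity glucose transporter, and HXT5, a transporter of slow-growing cells, rose by 2.48 ± 0.26 (adjusted p = 1.14e-08) and 2.69 ± 0.31 (adjusted p = 6.11e-08). HXT5 had 9.21 to 42.5 normalised reads (median 26.4) in the lowest-ratio wells and 99.5 to 277 (170) in the highest-LiCl wells, which all exceeded the 70.3 and 67.9 of LiCl alone. HXT1 had 10.5 to 30.9 normalised reads (median 15.3) in the lowest-ratio wells, 31.4 to 65.6 (38.95) in the middle wells and 64.3 to 180.7 (90.2) in the highest-LiCl wells, so the lowest-ratio wells overlapped neither set. Of the 8 named risers, HXT1 was the one without a called curve (departure 0.77 ± 0.24, adjusted p = 0.0737). Of 20 trehalose and glycogen genes 5 rose and 1 fell (median 0.42), beside 4.95% and 4.03% of all features. Their average, relative to the lowest-ratio wells, was 0.56 and 0.53 with LiCl alone, above every mixture well (at most 0.45). TPS1 and TPS2, the trehalose synthesis enzymes, rose by 0.72 ± 0.08 (adjusted p = 7.34e-08) and 0.91 ± 0.13 (adjusted p = 2.35e-06), whereas PGM1, the minor phosphoglucomutase, fell by 0.89 ± 0.16. HXK2, the main glucose-repressing hexokinase, fell by 0.64 ± 0.15 (adjusted p = 0.00194). It had 248 to 346 normalised reads (median 292) in the lowest-ratio wells, 170 to 231 (201) in the middle wells and 136 to 237 (181.3) in the highest-LiCl wells, against 282 and 298 with LiCl alone and 322 in each myriocin-alone well. Middle and highest-LiCl wells lay below these 4 single-drug wells and all lowest-ratio wells, while the 13 other myriocin-alone wells had 236 to 358.

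SPS100 and FMP45, known from spore wall and sporulation biology, rose by 2.77 ± 0.32 (adjusted p = 7.08e-08) and 2.62 ± 0.38 (adjusted p = 2.67e-06). FMP45 had 6.21 to 34.8 normalised reads (median 17.1) in the lowest-ratio wells and 87.2 to 165 (114) in the highest-LiCl wells. SPS100 had 2.82 to 13.1 normalised reads (median 5.22) in the lowest-ratio wells and 32.8 to 60.6 (40.7) in the highest-LiCl wells, with no overlap, and it overlaps an antisense noncoding RNA gene whose reads could not be separated. Yet OSW2, another spore wall gene, fell by 2.19 ± 0.31 (adjusted p = 1.78e-06), and had 8.83 to 38.9 normalised reads (median 29.6) in the lowest-ratio wells and 2.72 to 9.29 (5.23) in the highest-LiCl wells, which overlapped. The 12 meiotic marker genes summed to 56.2 to 91.8 normalised reads in the lowest-ratio wells, 46.8 to 90.7 in the middle wells and 57.7 to 82.5 in the highest-LiCl wells, overlapping ranges.

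Genes of sulfate assimilation and methionine synthesis fell or were not called: 9 of 31 tested fell and 0 rose, with a median change of -0.56. Over all features 4.03% fell. MET6, the methionine synthase, had 46.4, 60.1 and 107 normalised reads (lowest, median, highest) in the lowest-ratio wells, 15.9, 19 and 25.2 in the middle wells and 11.8, 17.7 and 27.02 in the highest-LiCl wells. The lowest-ratio wells did not overlap either other set, and wells 7 and 8, which differ by 1 step in LiCl dose at the same myriocin dose, had 53.9 and 25.2. All 10 highest-LiCl wells lay below LiCl alone, at 33.2 and 27.6, and myriocin alone gave 110 and 97.7. MET6 fell by 1.37 ± 0.33 (adjusted p = 0.0025) with a departure of -1.17 ± 0.28 (adjusted p = 0.0116). The pair of S-adenosylmethionine synthetase genes SAM1 and SAM2 fell by 1.18 ± 0.23 (adjusted p = 0.000205) and 1.21 ± 0.41 (adjusted p = 0.0352). SAM2 was low, averaging 8.31 normalised reads in the mixture wells and 3.82 with LiCl alone. It kept its call in 20 of 26 refits that left out 1 well. The methionine permease gene MUP1 fell by 1.20 ± 0.20 (adjusted p = 1.88e-05). Adding final OD600 removed the calls of the list: 0 of the 31 genes were called with that term (median -0.36). Without the 7 lowest-ratio wells 1 of 31 was called (median -0.37).

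Amino acid synthesis genes under the Gcn4 activator also fell, 17 of 46 tested with 0 higher and a median of -0.49, beside 4.03% of all features. ARO2, the chorismate synthase of aromatic amino acid synthesis, fell by 1.28 ± 0.14 (adjusted p = 1.14e-08). GLN1, glutamine synthetase, fell by 1.00 ± 0.18 (adjusted p = 6.67e-05) and lay below the straight course by 0.82 ± 0.12 (adjusted p = 2.75e-05). Its level was 255 to 390 normalised reads (median 303) in the lowest-ratio wells, 130 to 213 (166) in the middle wells and 114 to 171 (136) in the highest-LiCl wells, while LiCl alone gave 308 in both wells and myriocin alone 405 and 387. Every mixture well above the lowest ratio lay below these 4 single-drug wells, while the 13 other myriocin-alone wells had 203 to 588. With OD600 added 6 of 46 fell (median -0.39), and 7 of 46 fell without the lowest-ratio wells (median -0.34).

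DUR1,2, the urea amidolyase of nitrogen salvage, had 157 to 379 normalised reads (median 256) in the lowest-ratio wells, 62.6 to 107 (80.4) in the middle wells and 46.3 to 88.3 (76.3) in the highest-LiCl wells, against 168 and 154 with LiCl alone and 302 and 256 with myriocin alone. It fell by 1.49 ± 0.30 (adjusted p = 0.000281). Within the lowest-ratio wells it fell with dose too, and without those 7 wells the change along the ratio was -0.37 (adjusted p = 0.186). URA1, the dihydroorotate dehydrogenase of pyrimidine synthesis, fell by 1.51 ± 0.20 (adjusted p = 6.01e-07), and had 73.1 to 168 (median 84.5), 37.2 to 82.2 (55.3) and 25.6 to 56.5 (36.95) in the 3 sets. Its lowest values lay near the 23.02 and 26.6 of LiCl alone. BAP2, a branched-chain amino acid permease, moved the other way with a rise of 1.25 ± 0.18 (adjusted p = 3.95e-06).

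**Figure D4:**
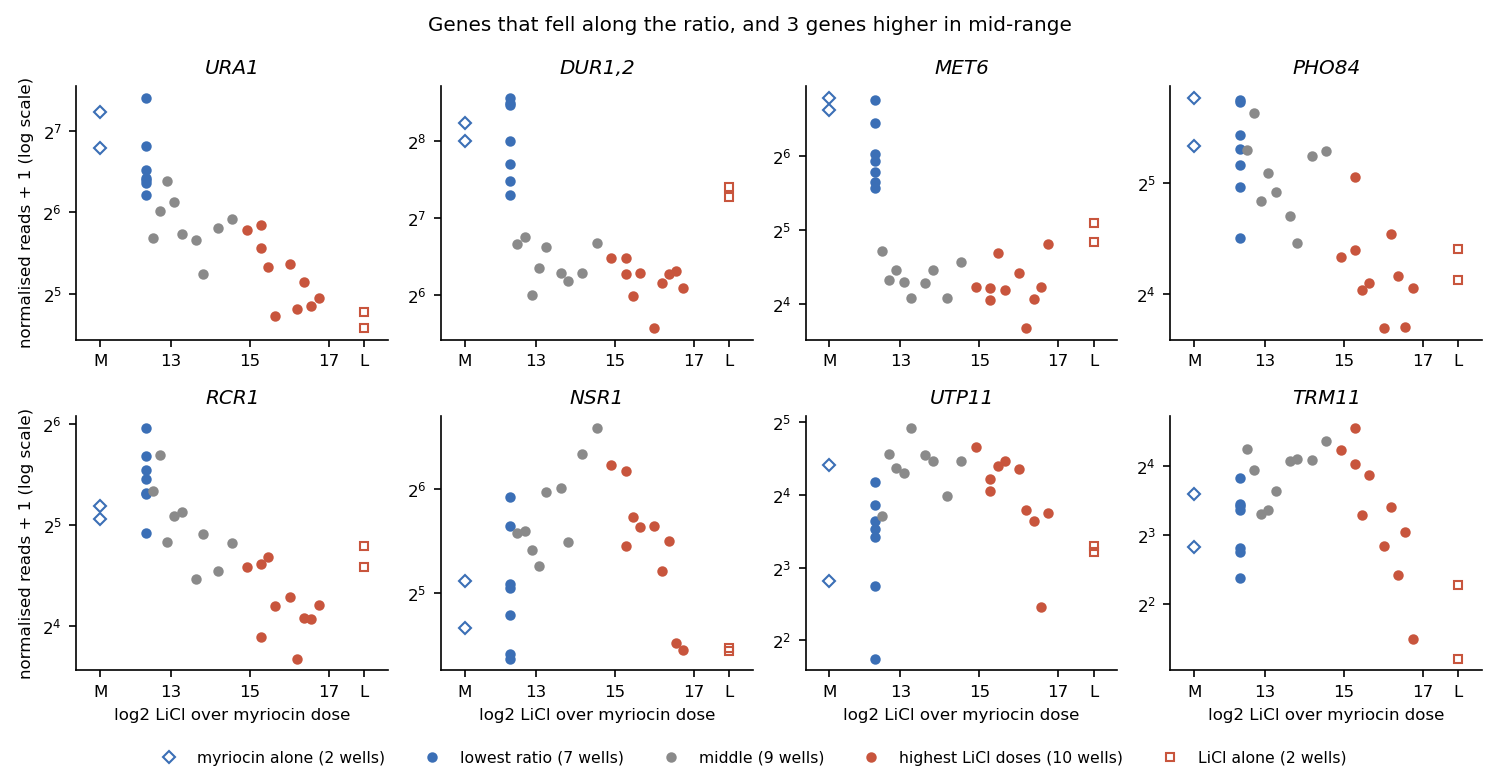
Genes that fell or were highest in mid-range: URA1, DUR1,2, MET6, PHO84, RCR1, NSR1, UTP11 and TRM11. Each point is 1 mixture well (log scale, normalised reads + 1, against log2 ratio) with single-drug wells at the axis ends. MET6 drops right after the lowest ratio and DUR1,2 falls within the lowest-ratio wells too, whereas RCR1 falls across the range and NSR1 peaks in the middle wells.

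Phosphate genes fell in part. PHO84, the high-affinity proton and phosphate symporter, fell by 1.41 ± 0.22 (adjusted p = 7.96e-06), and had 21.7 to 52.5 normalised reads (median 38.5) in the lowest-ratio wells, 21.04 to 48.4 (33.05) in the middle wells and 11.9 to 32.2 (16.5) in the highest-LiCl wells. The sets overlapped, and PHO84 overlaps an antisense RNA gene. PHO89, the sodium and phosphate cotransporter, fell by 1.88 ± 0.36 (adjusted p = 0.000123), and VTC1, a vacuolar polyphosphate synthesis subunit, fell by 0.71 ± 0.11 (adjusted p = 1.29e-05). PHO89 was low, averaging 7.02 normalised reads in the mixture wells and 3.11 with LiCl alone. Its lowest-ratio and highest-LiCl wells overlapped. PHO84, PHO89 and VTC1 were the 3 of 26 phosphate starvation genes that fell, beside 4.03% of all features, with 0 higher and a median of -0.08.

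Some sterol and cell surface genes fell. Of 29 ergosterol genes 8 fell and 0 rose (median -0.25), with ERG3, the C-5 desaturase, lower by -1.18 ± 0.28 (adjusted p = 0.002) and ERG6, the C-24 methyltransferase, by -0.96 ± 0.13 (adjusted p = 5.78e-07). ERG6 had 100 to 143 normalised reads (median 126) in the lowest-ratio wells and 53.6 to 97.9 (66.2) in the highest-LiCl wells, against 53.6 and 75.97 with LiCl alone. Among 33 cell wall genes 3 rose and 6 fell, beside 4.95% and 4.03% of all features. CWP1, a wall mannoprotein, rose by 1.49 ± 0.26 (adjusted p = 4.44e-05), and PIR3, a covalently linked wall protein, by 1.08 ± 0.28 (adjusted p = 0.00415). TIR1, a mannoprotein of cold and low-oxygen growth, fell by 1.49 ± 0.15 (adjusted p = 2.98e-09), as did SCW10, a wall glucanase, by 1.24 ± 0.15 (adjusted p = 1.37e-07). RCR1, an endoplasmic reticulum protein involved in chitin deposition, had 29.2 to 61.4 (median 42.9), 21.1 to 50.6 (29.02) and 11.8 to 24.8 (17.4) in the 3 sets, and changed by -1.4975 ± 0.19 (adjusted p = 2.19e-07).

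Other falls with the largest fitted size were PRY2, a secreted sterol-binding protein (-1.55 ± 0.22, adjusted p = 1.9e-06), PRM5, a membrane protein induced by cell integrity signalling (-1.70 ± 0.37, adjusted p = 0.000873), and OPT2, an oligopeptide transporter (-1.5016 ± 0.46, adjusted p = 0.0181). PRM5 and OPT2 were low throughout, with medians of 11.5 and 9.32 normalised reads in the lowest-ratio wells and 3.83 and 2.68 in the highest-LiCl wells. Of 16 iron and copper uptake genes 5 fell and 0 rose, beside 4.03% and 4.95% of all features, and 3 fell with OD600 as a term. The 5 included CTR1, the high-affinity copper transporter (-1.34 ± 0.24, adjusted p = 5.95e-05). Of 137 cytosolic ribosomal protein genes 7 fell, beside 4.03% of all features, and 0 rose (median -0.26). They included RPS22B (-1.15 ± 0.10, adjusted p = 6.88e-10), although paralogous copies share reads.

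Ribosome biogenesis genes had the hump as their main feature. Of 83 tested 0 rose and 0 fell along the ratio, but 14 lay above the straight course, and 80 of 83 had a positive departure with a median of 0.52, against 2293 of 5015 and -0.02 over all features. NSR1, a nucleolar protein of pre-rRNA processing, had 19.6, 31.9 and 59.6 normalised reads (lowest, median, highest) in the lowest-ratio wells, 37.2, 47.2 and 95.4 in the middle wells and 20.8, 46.5 and 74.2 in the highest-LiCl wells. These sets overlapped, and LiCl alone gave 20.6 and 21.01. The departure of NSR1 was 1.32 ± 0.22 (adjusted p = 0.00019) with a straight change of -0.06 ± 0.31.

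UTP11, a subunit of the small-subunit processome, ARX1, an export factor of the large subunit precursor, and BFR2, a further processome protein, departed by 1.26 ± 0.32 (adjusted p = 0.0212), 0.99 ± 0.25 (adjusted p = 0.0163) and 1.03 ± 0.27 (adjusted p = 0.0213). UTP11 had 2.37 to 17.1 normalised reads (median 10.5), 12.1 to 29.2 (21.04) and 4.49 to 24.2 (16.6) in the 3 sets. On the list average, the middle wells stood 0.13 to 0.56 log2 units above the mean of the lowest-ratio wells, while wells 25 and 26, at the highest ratios, stood at -0.28 and -0.29 and LiCl alone at -0.50 and -0.32. Without well 26 the count of curved features over all 5015 was 47. With total dose as a term 0 of the 83 were called curved (median departure 0.30). Without the 7 lowest-ratio wells 21 of 83 fell along the ratio and 2 were called curved. TRM11, a tRNA methyltransferase subunit, was the one of the 5 largest named humps that was not called straight, with a departure of 1.84 ± 0.28 (adjusted p = 3.45e-05). Its level was 4.18 to 13.1 (median 9.21), 8.82 to 19.6 (15.8) and 1.80 to 22.4 (9.18) in the 3 sets, against 1.31 and 3.83 with LiCl alone.

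Fewer genes lay below the straight course in mid-range. ANB1, the low-oxygen isoform of translation factor eIF5A, lay below the straight course by 1.20 ± 0.28 (adjusted p = 0.00853). Its level was 23.9 to 56.6 normalised reads (median 40.96), 9.25 to 40.6 (18.52) and 10.8 to 36.5 (19.01) in the 3 sets, overlapping, and 44.6 and 44.9 with LiCl alone. By the medians ANB1 dropped after the lowest ratio and stayed low, rather than recovering at high ratios. The transcription factor gene ACA1 (-1.11 ± 0.31, adjusted p = 0.0409) and the ribosomal protein genes RPL22B (-0.96 ± 0.17, adjusted p = 0.000358) and RPS9A (-0.94 ± 0.21, adjusted p = 0.00603) lay below the straight course too. RPS9A was also called as a straight fall (-0.78 ± 0.25, adjusted p = 0.025, limma).

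**Figure D5:**
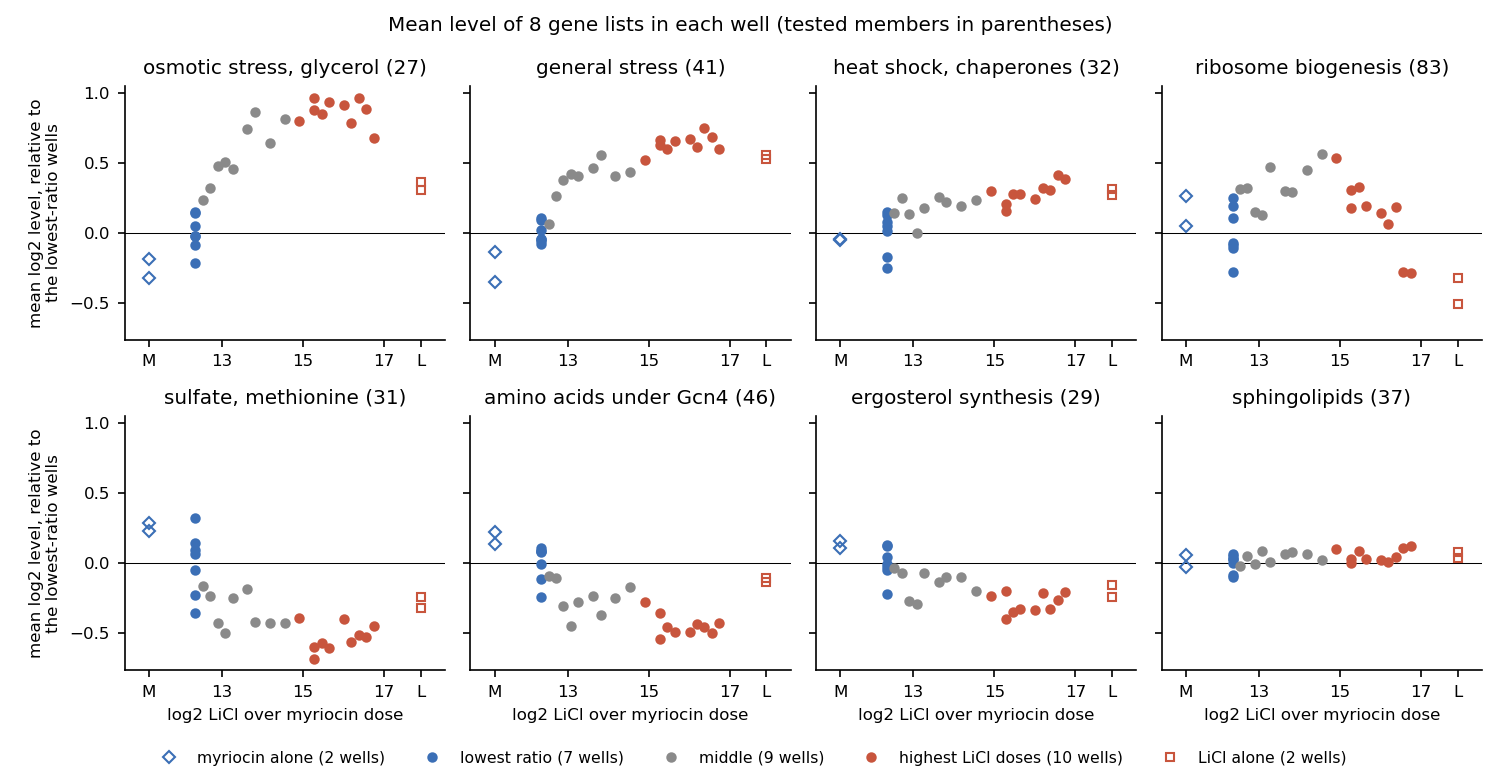
Mean log2 level of 8 gene lists in each mixture well, relative to the mean of the lowest-ratio wells, against log2 ratio. Osmotic and general stress lists climb and flatten, and ribosome biogenesis rises to the middle wells and then declines. The sulfur list falls mostly by the middle wells (median -0.42, and -0.54 in the highest-LiCl wells). The amino acid list falls across the range (-0.25 and -0.46).

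The 15 genes of drug action hold direct targets of the drugs, regulators and transporters. Of the 15, 0 were called straight and 0 curved. Over all features the shares were 4.95% and 4.03% for the straight calls and 1.34% and 0.479% for the curves. Beside such small shares, 0 of 15 does not set these genes apart. LCB1 changed by -0.11 ± 0.13 (adjusted p = 0.632), LCB2 by -0.02 ± 0.15 and TSC3 by -0.29 ± 0.16. LCB1 had 55.95 to 80.5 normalised reads in the lowest-ratio wells and 50.6 to 69.4 in the highest-LiCl wells, overlapping. MET22 changed by -0.36 and ENA1, a sodium and lithium pump gene that shares sequence with ENA2 and ENA5, by 0.19. PGM2, the main phosphoglucomutase, changed by 0.50 ± 0.07 (adjusted p = 1.32e-06) and PDR5, a drug efflux pump, by -0.54 ± 0.13 (adjusted p = 0.0031), both short of 1.5-fold.

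In the wider sphingolipid list, 3 of 37 genes rose and 2 fell (median 0.03), near the 4.95% and 4.03% of all features. SLM1, a target of sphingolipid signalling through TOR complex 2, rose by 1.29 ± 0.21 (adjusted p = 1.95e-05), YPC1, an alkaline ceramidase, by 0.77 ± 0.12 (adjusted p = 1e-05) and CSH1, a subunit of mannosylinositol phosphorylceramide synthase, by 0.76 ± 0.15, while PHS1, a dehydratase of very long chain fatty acid synthesis, fell by 0.61 ± 0.15. SLM1 had 18.6 to 35.1 normalised reads (median 26.4) in the lowest-ratio wells and 42.7 to 90.5 (61.2) in the highest-LiCl wells, with no overlap. Of 23 cation homeostasis genes 3 rose and 1 fell, beside the same shares of all features. The largest rise was that of VHS3, an inhibitor of the Ppz1 phosphatase that governs salt tolerance (1.11 ± 0.11, adjusted p = 2e-09). Calcineurin targets leaned down, with 5 of 23 lower and 0 higher: PUN1, a plasma membrane protein, fell by 1.02 ± 0.11 (adjusted p = 2.74e-08), RCN1, a calcineurin regulator, by 0.89 ± 0.22 and CMK2, a calmodulin-dependent kinase, by 0.60 ± 0.11. CMK2 had 326 to 415 normalised reads in the lowest-ratio wells and 191.5 to 290 in the highest-LiCl wells, which lay below those wells and below LiCl alone (316 and 358).

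Genes of daughter-cell separation rose in part, 4 of 15 with 0 lower (median 0.41, and 0.21 with OD600 as a term). CTS1, the endochitinase that frees daughter cells, rose by 0.94 ± 0.13 (adjusted p = 1.18e-06), and had 107 to 165 normalised reads (median 149) in the lowest-ratio wells and 189.3 to 258 (224) in the highest-LiCl wells. LiCl alone gave 330 and 365, above every mixture well. With OD600 as a term 0 of the 15 were called, and final OD600 was 0.473 to 0.578 in the lowest-ratio wells and 0.532 to 0.740 in the highest-LiCl wells. OD600 and the ratio cannot be told apart here. Of 20 genes of G1 and S phase 1 rose and 2 fell, and 2 of 20 G2/M genes rose. Over all features 4.95% rose and 4.03% fell, so these small counts set neither list apart.

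At the lowest ratio both doses rose together over 1.10 doublings in wells 1 to 7, which separates dose from ratio. Along dose 22 features rose (0.439%) and 34 fell (0.678%), while 600 had an unadjusted p below 0.05. Of the 34 features that fell, 11 had a standard gene name, against 17 of the 22 that rose. The osmotic genes TKL2 (1.31 ± 0.25, adjusted p = 0.00733) and SIP18 (1.46 ± 0.24, adjusted p = 0.00228) already rose with dose there, and 5 of 27 osmotic genes did. STL1 was not among them: its fitted change with dose was negative and not called (-2.51 ± 1.00, adjusted p = 0.287, limma). It had 9.21, 13.1, 5.73, 15.3, 2.515, 9.88 and 0.00837 normalised reads in wells 1 to 7. SIP18 had 79.6, 65.6, 69.9, 114, 117, 143 and 195.6 normalised reads in wells 1 to 7, higher in the upper doses. The chaperone-linked gene BTN2 rose by 1.52 ± 0.27 (adjusted p = 0.00541), with 43.99, 64.4, 84.4, 58.4, 117, 138 and 125 in those wells.

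QDR3, a multidrug transporter, rose in each step of dose, with 6.11, 8.83, 12.1, 15.3, 17.3, 24.8 and 32.3 normalised reads in wells 1 to 7 (2.13 ± 0.49, adjusted p = 0.0249). CHO1, phosphatidylserine synthase, fell by 1.66 ± 0.34 (adjusted p = 0.011), with 79.6, 64.4, 60.1, 76.3, 56.6, 28.3 and 22.3. GCV2, a glycine cleavage subunit, fell by 1.72 ± 0.35 (adjusted p = 0.0122) and DUR1,2 changed by -1.33 ± 0.19 (adjusted p = 0.000928). In all 12 dose calls moved the same way along the ratio and 1 the opposite way. These calls rest on 7 wells: 0 features were called when low features were kept (722 of 6716 at an unadjusted p below 0.05), 18 with growth as a term, and 19, 29, 17 and 12 without well 1, 3, 5 or 6.

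Many of these slopes differed with the partner of LiCl. Slopes per doubling of the LiCl to partner ratio were compared with 18 wells of LiCl with rapamycin, a TOR complex 1 inhibitor, and 22 wells of LiCl with cycloheximide, a translation elongation inhibitor. Against rapamycin, the slope with myriocin was higher for 340 features (6.78%) and lower for 296 (5.9%). Against cycloheximide it was higher for 272 (5.42%) and lower for 222 (4.43%). Each pair was its own grid, so pair and grid cannot be told apart, and the 3 sets of wells cover different doses.

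STL1 rose by 1.07 log2 units per doubling with myriocin, against -0.11 with rapamycin and -0.07 with cycloheximide, a difference of 1.18 ± 0.17 (adjusted p = 9.27e-08) and 1.14 ± 0.15 (adjusted p = 1.5e-08). GRE1 had slopes of 0.77 with myriocin, -0.01 with rapamycin and -0.07 with cycloheximide. SIP18 had slopes of 0.65, 0.31 and -0.31 with myriocin, rapamycin and cycloheximide, and differed from the last by 0.96 ± 0.11 (adjusted p = 3.67e-10). TKL2 rose with both myriocin (0.67) and rapamycin (0.59) but stood at 0.07 with cycloheximide, and HXT1 had slopes of 0.57, 0.86 and 0.41. Of 450 features called along the ratio, 155 also differed from the rapamycin slope in the same direction. In the ribosome biogenesis list 35 of 83 had a slope below that with rapamycin, as had LTV1, a small-subunit export factor (-0.02 with myriocin and 0.41 with rapamycin), and 12 of 31 sulfur genes had a slope above it. RCR1, TIR1 and SCW10 had slopes of -0.34, -0.34 and -0.28 with myriocin and 0.15, 0.09 and 0.20 with cycloheximide, differences of -0.49 ± 0.07, -0.43 ± 0.05 and -0.49 ± 0.04 per doubling.

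Windows of 500 bases ending 51 bases before the start codon were read for 4733 of the 5015 features and searched on both strands, each element on its own even where matches shared bases. AGGGG stood in 62.9% of promoters of features that rose (146 of 232) and 27.4% of those that fell (52 of 190), against 35.7% of all (1692 of 4733). It stood in 76.9% (30 of 39) of features that rose with a hump and in 20% (5 of 25) of those with a hump alone. GATGAG stood in 88% of the hump-only promoters (22 of 25), 24.6% of risers and 33.7% of fallers, against 29.6% of all.

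Among features that fell, TGACTC, the Gcn4 element, stood in 21.1% (40 of 190) against 13% of all, CACGTG in 12.1% (23 of 190) against 6.97%, and AAACTGTG, the Met31 and Met32 element, in 6.84% (13 of 190) against 2.77%. Other letters searched were GAGGCTG (Crz1), found in 5.26% of fallers and 0.431% of risers against 3.17% of all, and TTCNNGAA (heat shock factor), found in 20.7% of risers against 21.1%. GATAAG (Gln3) stood in 23.2% of fallers against 22.4%, TCGTATA (sterol element) in 7.89% against 6.76% and CATGTGAA (Ino2 and Ino4) in 2.11% against 1.46%. GRE1 had no AGGGG in its window, MUP1 and SAM1 no CACGTG and TRM11 no GATGAG, which says only that these letters are not in these windows.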

How the data were processed

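Polyadenylated RNA of each well was copied from barcoded poly(T) primers with a unique molecular identifier and sequenced as single-end reads, per the labels' protocols. Per the submitters' processing notes, TopHat, UMI-tools and featureCounts were used with build R64. Not given in the sources used here are tool versions, strandedness and the handling of multiply matching reads, so near-identical copies, overlapping genes and antisense genes are uncertain. The authors deposited a normalized signal for 6717 features in 238 libraries, not counts. Each library had the same largest value (17026.2) and totals of 595181 to 596851, the pattern of quantile normalization, so a shift of most messenger RNA in 1 direction cannot be seen. Depth was estimated from the value shared by features with 30 reads.

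A count test was planned for counts. As the table holds none, limma 3.58.1 (R 4.3.3), with its trend option, was used on log2(value + 1), which understates changes of low features. Tests covered the 5015 features that averaged at least 10 across the 238 libraries, and 6026 of the 6717 matched RefSeq (691 did not). That average includes the 26 mixture wells, so a feature high in them could pass the filter through them. STL1, GRE1 and SPS100 averaged 15.6, 21.5 and 10.3 over all libraries, but 85.8, 120 and 26.4 in the mixture wells. Their place among the tested features may rest on these wells. The straight fit had the log2 dose ratio and relative growth, the curved fit a squared ratio as well, the dose fit the 7 wells of the lowest ratio and log2 LiCl dose alone, and the comparison of slopes 66 wells of 3 pairs with an intercept and a slope each and growth. All p-values were Benjamini-Hochberg adjusted over 5015 features, and a call needed an adjusted p below 0.05 and 1.5-fold. Single-drug and no-drug wells were compared by values alone. On simulated data changes of 1 log2 unit were recovered in 84% of features for the straight fit, 80% for the curved fit and 26% for dose at the lowest ratio.

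Named genes were the 8 largest called rises and falls, the 5 largest humps, troughs, dose changes and slope differences in each direction, up to 4 called members of each list by size, and 15 genes of drug action. Features with no standard name were counted but not named. Members and lists were chosen with earlier results of these data known. The comparisons with single-drug wells, the step between wells 7 and 8 and the division into lowest-ratio, middle and highest-LiCl wells were chosen after their values were seen. The result of 1 further promoter search is not reported here.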

Additional observations from a re-analysis of the deposited data

Results flagged for a closer look

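The results below were picked out because the slope along the LiCl to partner ratio differed between pairs in a test of the difference itself (limma, adjusted p below 0.05 and 1.5-fold over the range), 5 genes in each direction for each comparison. Differences are log2 units per doubling, LiCl with myriocin minus the other pair.

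Against LiCl with rapamycin, the slope with myriocin was higher for STL1 (1.18), GRE1 (0.78), SPG4 (0.72), the wall protein gene PIR3 (0.56) and the ammonium permease gene MEP2 (0.55). It was lower for LTV1 (-0.44), OSW2 (-0.43), the sterol gene activator UPC2 (-0.43), DIA1 (-0.43) and TRM11 (-0.41). SPG4 had a slope of 0.27 with myriocin and -0.46 with rapamycin. MEP2 changed by 0.04 along the myriocin ratio itself.

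Against LiCl with cycloheximide, the slope with myriocin was higher for STL1 (1.14), SIP18 (0.96), GRE1 (0.84), SPS100 (0.71) and SPG1 (0.66). It was lower for SCW10 (-0.49), RCR1 (-0.49), DIA1 (-0.48), TIR1 (-0.43) and the osmosensing mucin gene MSB2 (-0.41). STL1 and GRE1 stood first or among the first in both comparisons, which share the myriocin wells. DIA1 overlaps another gene on the opposite strand over 174 bases.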

How the results depend on the processing

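The 450 features called along the ratio became 249 with final OD600 as a term (134 higher, 115 lower, 180 shared) and 292 with a pseudocount of 10. Leaving out each well in turn gave 380 to 490. The 91 curved features became 6 with log2 total dose added and 23 without the 7 lowest-ratio wells. They ranged over 47 (without well 26) to 105 when single wells were left out. The 56 dose calls became 18 with growth added and 0 with no filter, and ranged over 12 to 82 with 1 well left out. The 494 features with another slope than in LiCl with cycloheximide became 209 with OD600 added. With depth added, which was higher at high ratios, 479 were called and 323 shared. Every other setting tried (no growth term, rank of the ratio, quality weights, recentring) kept each count it was run for within 1.5 times. Subtracting the median log2 ratio of each library, at most 0.038, gave 439. No mixture well was shallow enough to be left out for depth. No paired analysis was possible because the labels give no replicate numbers.

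Of 98 genes named for a straight change, 50 kept the call with OD600 added, 81 with depth added, 60 without the lowest-ratio wells and 81 in every refit that left out 1 well. Of 29 named for a curve, 2 kept it with total dose added and 15 in every such refit. Of 10 named for dose, 1 (DUR1,2) was called in every such refit. Signs turned for ASH1, whose change became -0.0082 with OD600 added (adjusted p = 0.993), and for MET6, whose departure became 0.16 with total dose added (adjusted p = 0.914). The 8 largest risers kept the straight call under all 10 other settings of that fit. MET6 lost its straight call with OD600 added, PRM5 with OD600 added and without the lowest-ratio wells, and OPT2 with those, with depth added and with a pseudocount of 10. STL1 lost its departure call on the rank of the ratio (1.59, adjusted p = 0.0567) and without well 26. The causes were not tested. Depth of 251487 to 638080 reads limits features below about 10 normalised reads most.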

Other observations

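Smaller lists showed values not given above. Of 11 genes of NAD and kynurenine metabolism, 1 rose and 2 fell along the ratio (median -0.46), beside 4.95% and 4.03% of all features. BNA1, a dioxygenase of the kynurenine route, was at -1.10 ± 0.13 log2 units and PNC1, the nicotinamidase, at 0.59 ± 0.08 (limma). PNC1 had 560 to 658 normalised reads in the lowest-ratio wells and 842 to 940 in the highest-LiCl wells, against 802 and 808 with LiCl alone. Of 39 oxidative phosphorylation genes 2 rose, beside 4.95% of all features, and 9 of the 39 had a positive change (median -0.11). The 2 were NDE2, an external NADH dehydrogenase (1.3505 ± 0.27), and CYC7, the low-oxygen cytochrome c isoform (0.97 ± 0.11). AGX1, which makes glycine from glyoxylate, lay above the straight course by 0.99 ± 0.19 (adjusted p = 0.00111, limma), and had 30.1 to 79.2 normalised reads in the lowest-ratio wells, 56.6 to 111 in the middle wells and 49.5 to 110 in the highest-LiCl wells. LiCl alone gave 17.3 and 24.1 and myriocin alone 30.8 and 27.1, so all 19 wells past the lowest ratio were above these 4 wells, while the 13 other myriocin-alone wells had 21.4 to 59.4.

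Features without a standard gene name made up 67 of the 248 rises and 44 of the 202 falls. The largest falls among them were YOR385W (-2.36 ± 0.21, adjusted p = 6.88e-10) and YOL014W (-2.30 ± 0.34), both named here after their values were seen. YOR385W had 44.7 to 107 normalised reads in the lowest-ratio wells and 10.1 to 37.6 in the highest-LiCl wells, with no overlap. BAP2 had 77.9 to 142 normalised reads in the highest-LiCl wells, all below the 154 and 173 of LiCl alone.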
